A study of Mus musculus with 9 samples.

Results

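The constitutive proteasome subunits examined here are the 35 mouse genes whose probe sets carry exactly 1 gene symbol of the Psma, Psmb, Psmc or Psmd series, leaving out the inducible and thymus-specific core subunits Psmb8, Psmb9, Psmb10 and Psmb11. They are 35 of the 18193 genes with such a probe set, and each gene is represented by its brightest probe set over the 9 arrays. The core particle accounts for 15 of them and the regulatory particle for 20. Of the 35, 34 reached a log2 value of 4 on at least 3 of 9 arrays and were tested among 10937 genes. The exception was Psma8, an alpha subunit known from the testis, which was listed at 2.29 on all 9 arrays.

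Thymus cells of female C57BL/6J mice, 6 to 8 weeks old, were depleted of CD45+ cells on magnetic columns to leave the non-haematopoietic stroma, and their total RNA was hybridised to Affymetrix mouse expression arrays. Each of the 3 groups held 3 arrays: no irradiation (untreated), or 4 days (day 4) or 7 days (day 7) past sublethal total body irradiation (SL-TBI) at 550 cGy. The labels name no genetic change and no further treatment in any group. Cells of several mice were pooled to obtain enough RNA, and the labels do not say whether the 3 arrays of a group came from separate pools, so p-values measure the spread between these arrays only, which may be technical.

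The 26S proteasome degrades proteins that carry ubiquitin chains. Its core particle is a barrel of alpha and beta rings whose catalytic subunits cut the protein, and its regulatory particle caps the barrel: the base unfolds the substrate with a ring of ATPases, and the lid removes the ubiquitin chain. In the thymus, peptides from proteasomes are loaded on MHC class I, and cortical epithelial cells carry a core subunit of their own, Psmb11. The transcription factors Nfe2l1 and Nfe2l2 act with small Maf proteins on antioxidant response elements and are known to raise proteasome subunit transcription, NF-Y binds CCAAT boxes, and nuclear respiratory factor 1 (gene Nrf1) binds GC-rich sites.

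The promoters of 5 subunits, chosen for the motifs they hold, are shown as the 250 bases before the transcription start in RefSeq (build GRCm38.p6), 5′ to 3′ on the gene's strand. Capitals mark the antioxidant response element TGACNNNGC in Psmb5 and Psmb6, CCAAT in Psma1 and Psmb3, and GCGC, 2 bases of any kind and GCGC again in Psmc4, each searched on both strands. Psmb5 lies on chr14:54617996-54618245 (minus strand), Psmb6 on chr11:70525107-70525356 (plus strand), Psma1 on chr7:114276117-114276366 (minus strand), Psmb3 on chr11:97703184-97703433 (plus strand) and Psmc4 on chr7:28050093-28050342 (minus strand).
Psmb5: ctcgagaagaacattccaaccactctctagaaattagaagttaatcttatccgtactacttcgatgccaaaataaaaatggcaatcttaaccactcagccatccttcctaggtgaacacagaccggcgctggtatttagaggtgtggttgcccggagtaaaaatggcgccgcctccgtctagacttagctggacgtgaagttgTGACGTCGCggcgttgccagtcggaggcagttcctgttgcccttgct
Psmb6: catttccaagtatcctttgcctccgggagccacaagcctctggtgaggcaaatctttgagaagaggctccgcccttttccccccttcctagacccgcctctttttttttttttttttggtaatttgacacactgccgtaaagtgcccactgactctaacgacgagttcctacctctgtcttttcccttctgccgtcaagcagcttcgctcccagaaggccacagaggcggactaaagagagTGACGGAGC
Psma1: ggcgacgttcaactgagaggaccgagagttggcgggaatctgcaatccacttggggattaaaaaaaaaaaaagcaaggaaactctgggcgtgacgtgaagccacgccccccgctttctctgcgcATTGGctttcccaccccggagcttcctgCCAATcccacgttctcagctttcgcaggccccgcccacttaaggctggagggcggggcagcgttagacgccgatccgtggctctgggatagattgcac
Psmb3: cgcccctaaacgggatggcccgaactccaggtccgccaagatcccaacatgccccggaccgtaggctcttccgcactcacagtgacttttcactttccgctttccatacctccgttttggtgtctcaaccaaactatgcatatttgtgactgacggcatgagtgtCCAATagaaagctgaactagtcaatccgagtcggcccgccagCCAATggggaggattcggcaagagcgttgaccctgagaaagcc
Psmc4: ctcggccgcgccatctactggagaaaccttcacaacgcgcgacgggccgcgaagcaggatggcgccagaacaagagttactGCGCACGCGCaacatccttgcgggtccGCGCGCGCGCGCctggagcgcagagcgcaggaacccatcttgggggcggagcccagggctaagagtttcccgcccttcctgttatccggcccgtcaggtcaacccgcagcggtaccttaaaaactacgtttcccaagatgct

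The element in Psmb5 begins at base -47 before the start and the element in Psmb6 at base -9. Windows were found for 28 of the 35 members, 30 windows in all. TGACNNNGC occurred in 5 of these 30 windows (16.7%) and in 10.2% of the 32851 windows in the RefSeq table. CCAAT occurred in 11 (36.7%, against 33.8% of all windows), the split GCGC motif in 6 (20.0%, against 5.0%), and TATAAA in 3 (10.0%, against 12.4%). The windows with the split GCGC motif belong to Psma2, Psma3, Psma4, Psmc4, Psmc5 and Psmd14. A match describes the letters of a window and is no evidence that a factor binds there.

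The preparations changed in makeup around these genes. The 13 thymocyte markers with a probe set averaged log2 9.43 to 9.72 on the untreated arrays, 3.44 to 3.74 at day 4 and 6.91 to 7.03 at day 7, and Ptprc, which encodes CD45 itself, averaged 12.22 ± 0.25, 4.64 ± 0.53 and 9.51 ± 0.22 (SD, n = 3 each), so the untreated cells still held CD45 transcripts after depletion. At day 4, 8 of the 13 (Cd4, Cd8a, Cd8b1, Rag1, Ptcra, Cd2, Cd5 and Themis) were below log2 4 on every array. The 9 markers of dividing cells averaged 9.09 to 9.74 on the untreated arrays, 4.64 to 4.87 at day 4 and 7.70 to 7.85 at day 7. Fibroblast markers averaged 10.19 to 10.79, 11.62 to 12.11 and 11.34 to 11.61 in the same order, and endothelial markers 4.43 to 6.26, 5.39 to 6.24 and 7.64 to 7.81. Cortical epithelial markers averaged 11.45 to 11.64, 11.85 to 11.94 and 12.12 to 12.22, medullary epithelial markers 7.90 to 8.99, 7.94 to 8.32 and 7.23 to 7.44, and general epithelial markers 9.29 to 9.93, 9.60 to 9.83 and 9.36 to 9.43. Only 3 of 7 macrophage markers were tested, averaging 5.20 to 5.56, 5.25 to 5.49 and 5.5 to 5.79. The other 4 were below log2 4 on every array, and of the 3, 1 rose and 1 fell at day 4. The 2 erythroid markers tested averaged 7.05 to 8.89, 2.68 to 2.97 and 4.92 to 5.28. Both were below log2 4 on every day 4 array. The Actb probe sets at the 3′ and 5′ ends, a measure of RNA integrity, differed by 2.28 ± 0.15 on the untreated arrays, 3.13 ± 0.17 at day 4 and 2.51 ± 0.21 at day 7 (SD, n = 3 each). The day 4 arrays overlapped neither the untreated nor the day 7 arrays. The Actb shift was 0.85 for day 4 minus untreated and -0.62 for day 7 minus day 4. For Gapdh the same shifts were 0.47 and -0.47. In each of these tests the exact permutation p was 0.1, the smallest that 3 against 3 arrays allow. Day 7 minus untreated was 0.23 for Actb and 0.00 for Gapdh. The part of these shifts in the proteasome results was not tested, and in pooled tissue fewer cells of a type and less RNA per cell cannot be told apart.

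Averaged over the 34 members tested, the log2 level was 10.06, 10.12 and 10.03 on the untreated arrays, 9.95 on each of the 3 day 4 arrays, and 10.23, 10.39 and 10.28 on the day 7 arrays. The day 4 arrays lay lowest, the day 7 arrays highest, and no 2 groups overlapped. The mean of all genes tested moved differently, with 7.26 to 7.35 on untreated arrays, 7.38 to 7.43 at day 4 and 7.32 to 7.37 at day 7. On the brightest probe sets the widest difference of a member in any comparison was 1.82-fold; dimmer probe sets of Psma1, Psma3, Psma6, Psmc6 and Psmd9 differed by more.

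**Figure D1:**
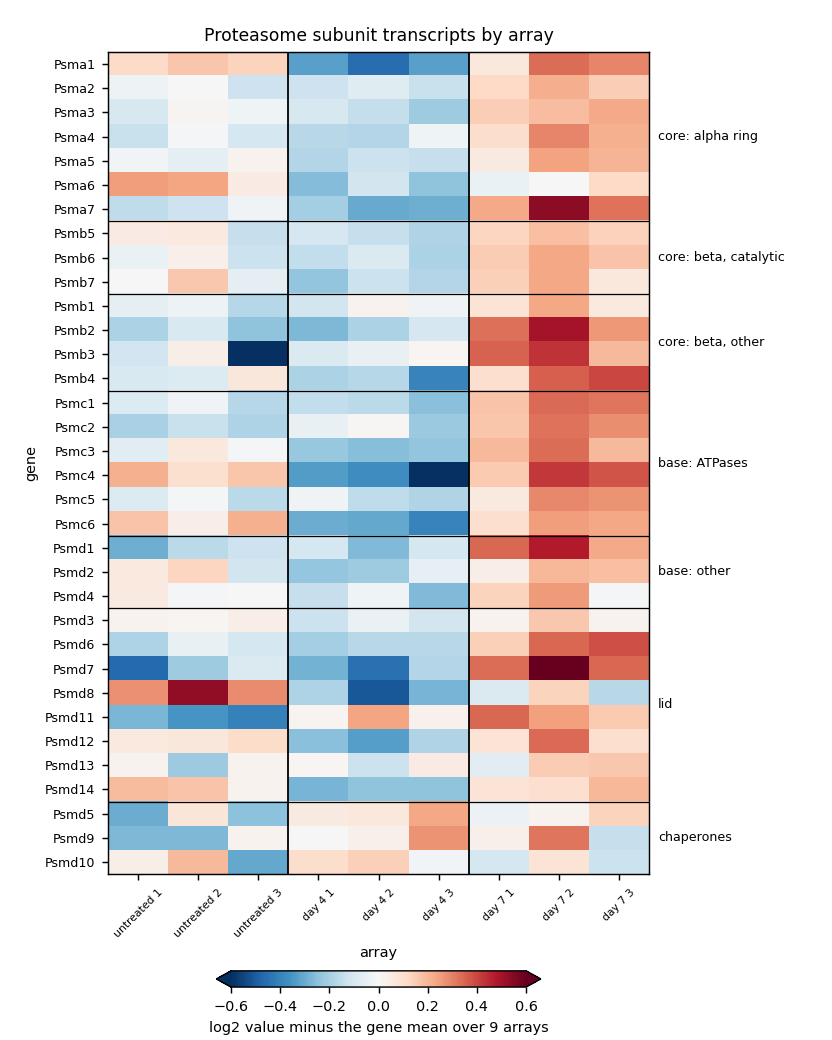
Log2 value of each of the 34 tested subunits (rows, by place in the particle) on each of the 9 arrays (columns), minus that gene's mean over the 9 arrays; red is above the mean, blue below, and the colour scale ends at 0.6 on either side. The day 7 columns are mostly red and the day 4 columns mostly blue, while the 3 chaperone rows at the bottom do not follow that order.

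**Figure D2:**
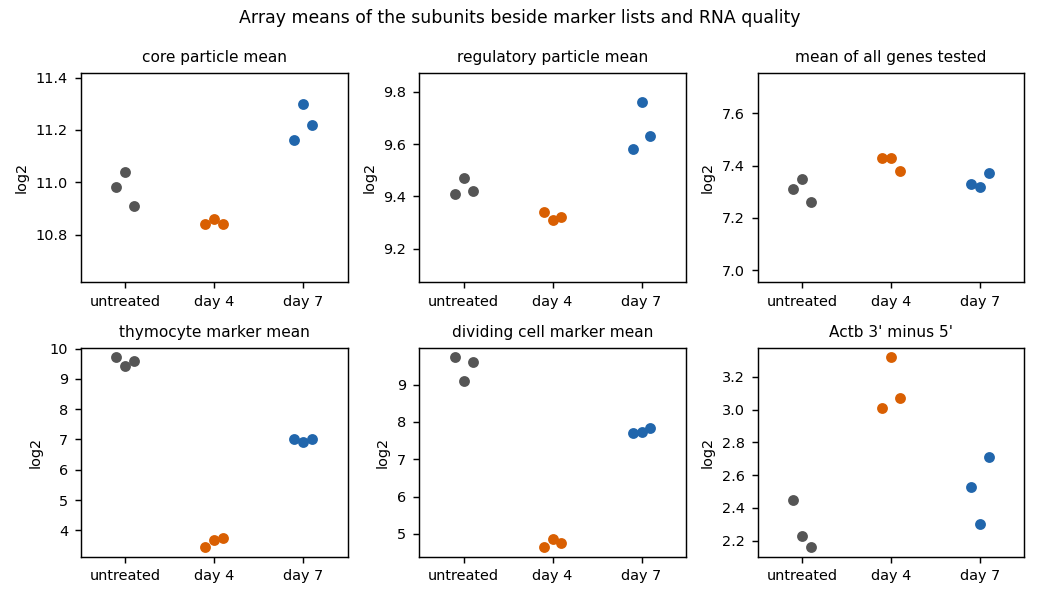
Mean log2 level on each array (points) of the core subunits, the regulatory particle subunits, all genes tested, thymocyte markers and dividing-cell markers, and the Actb difference between the 3′ and 5′ ends, in the 3 groups; each panel has its own log2 axis, which does not start at 0. The members' means moved by less than 1 log2 unit, while the thymocyte and dividing-cell means moved by several units.

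The first comparison set day 4 after irradiation against untreated thymus. More subunits fell than rose: Psmd8 and Psmc4 fell most, with Psma1, Psmc6, Psma6, Psmd14, Psmd12 and Psmc3 also lower, and the lid subunit Psmd11 alone was higher. Thus 8 of 34 members fell, 1 rose and 25 did not pass the test, 26.5% called against 63.2% of the 10937 genes tested (41.8% higher and 21.4% lower). The members' median difference was -0.11 log2, with quartiles of -0.22 and 0.02, while that of all genes tested was 0.20. At 23.5%, the share of members that fell was near that of all genes.

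In the core particle, Psma1, an alpha ring subunit, read 10.74, 10.61 and 10.74 at day 4, against 11.18, 11.23 and 11.20 in untreated thymus. All day 4 arrays lay below all untreated arrays, a difference of -0.51 ± 0.09 (SE, limma adjusted p = 0.00142). A dimmer probe set of Psma1 differed by -2.37. Psma6, the other alpha subunit that fell, differed by -0.39 ± 0.09 (adjusted p = 0.00641), and all 7 alpha subunits tested had a negative difference, from -0.51 to -0.04.

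The catalytic subunits did not pass the test at day 4. Psmb5, which carries the chymotrypsin-like activity, read 9.98, 9.94 and 9.90 at day 4 and 10.13, 10.14 and 9.94 in untreated thymus. Psmb6, with the caspase-like activity, read 10.56, 10.62 and 10.52 at day 4 and 10.67, 10.74 and 10.58 in untreated thymus. The ranges of both genes overlapped between the groups, with differences of -0.13 ± 0.08 and -0.10 ± 0.08 (adjusted p = 0.21 and 0.326). Psmb7, with the trypsin-like activity, read 8.99, 9.10 and 9.05 at day 4 and 9.23, 9.39 and 9.17 in untreated thymus. Its groups did not overlap, yet the difference of -0.22 ± 0.09 missed the threshold (adjusted p = 0.0647). None of the 4 other beta subunits passed, their differences lying between -0.22 and 0.25.

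In the base of the regulatory particle, 3 of the 6 ATPases fell (50.0%, against 21.4% of all genes). Psmc4 read 11.06, 11.02 and 10.67 at day 4, against 11.61, 11.49 and 11.56 in untreated thymus. Psmc6 read 10.26, 10.25 and 10.16 at day 4, against 10.73, 10.60 and 10.77. Both genes were lower on every day 4 array than on any untreated array, by -0.64 ± 0.12 and -0.48 ± 0.09 (adjusted p = 0.00177 and 0.00127). The call for Psmc6 rested on its brightest probe set: another differed by 0.16 and the third by 0.17. Psmc3 fell by 0.23 (adjusted p = 0.0313), kept in 4 of the 9 fits that left out 1 array. The ubiquitin receptor Psmd4 read 9.83, 9.94 and 9.70 at day 4 and 10.02, 9.96 and 9.97 in untreated thymus, without overlap but not past the threshold (-0.16 ± 0.10, adjusted p = 0.186).

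In the lid, 3 of 8 subunits fell (37.5%, against 21.4% of all genes) and 1 rose (12.5%, against 41.8%). Psmd8 read 8.54, 8.22 and 8.45 at day 4, against 9.0, 9.26 and 9.01 in untreated thymus. Psmd14, the deubiquitinase that cuts the chain from the substrate, read 10.17, 10.21 and 10.21 at day 4, against 10.64, 10.62 and 10.47. Both groups of arrays were apart for both genes, with differences of -0.69 ± 0.13 and -0.38 ± 0.08 (adjusted p = 0.00132 and 0.00358). Psmd11, a scaffold subunit of the lid, read 10.38, 10.60 and 10.39 at day 4, against 10.09, 10.01 and 9.96. Every day 4 array was higher, by 0.43 ± 0.10 (adjusted p = 0.00393), on the brightest probe set only: the other 3 bright probe sets differed by 0.00, -0.10 and 0.16. Psmd12 fell by 0.33 (adjusted p = 0.0132). The assembly chaperones Psmd5, Psmd9 and Psmd10, which help the base ring form and leave the finished particle, had differences of 0.27, 0.27 and 0.10, none past the threshold.

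**Figure D3:**
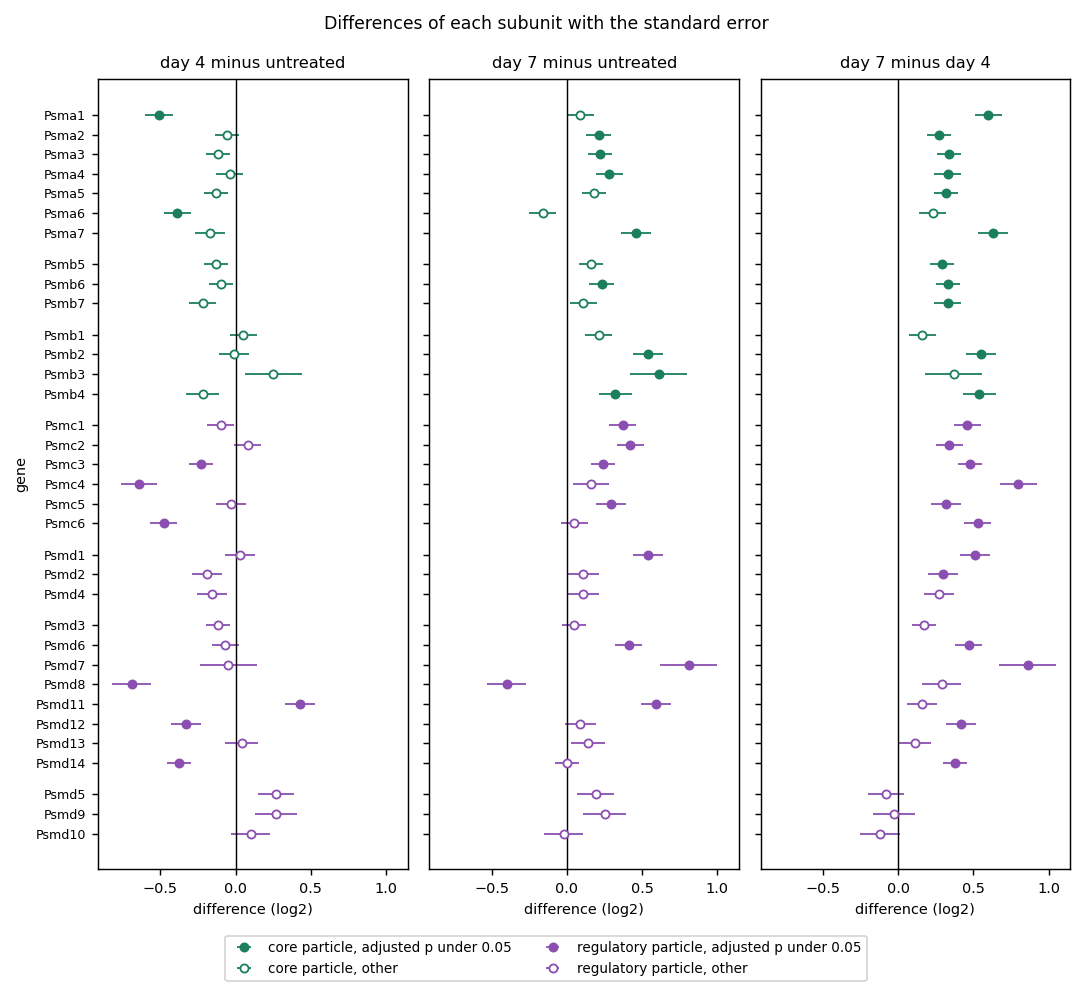
Difference in log2 level (horizontal axis) of each tested subunit (rows) in the 3 comparisons, with bars of 1 standard error and filled points where the limma adjusted p was under 0.05. Most points lie left of 0 for day 4 minus untreated and right of 0 for day 7 minus day 4.

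The second comparison set day 7 against untreated thymus. Rises then outnumbered falls: Psmd7, Psmb3, Psmd11, Psmd1 and Psmb2 rose most, and Psmd8 alone was lower. In all 16 of 34 members rose, 1 fell and 17 did not pass, 50.0% called against 54.1% of all genes tested (32.1% higher and 22.0% lower). The median difference was 0.21 log2 (quartiles 0.11 and 0.35), beside 0.09 over all genes. This count rested on single arrays: it was 17 with all arrays, 9 without day 7 replicate 2 or replicate 3, 10 without untreated replicate 1, 11 without untreated replicate 3 or day 7 replicate 1, and 13 to 16 without any of the others.

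The core particle had 8 of 14 tested members higher (57.1%, against 32.1% of all genes) and none lower. In the alpha ring, Psma7 read 10.73, 11.04 and 10.83 at day 7, against 10.35, 10.38 and 10.48 in untreated thymus. All day 7 arrays lay above all untreated arrays, by 0.46 ± 0.10 (adjusted p = 0.00395). Psma2, Psma3 and Psma4 rose by 0.21, 0.22 and 0.28 (adjusted p = 0.045, 0.0433 and 0.0253; kept in 1, 1 and 5 of the 9 fits that left out 1 array), while Psma1 read 11.13, 11.40 and 11.36 at day 7, which overlapped the untreated arrays. For Psma1 and Psma3 a dimmer probe set pointed the other way, with -1.61 and -0.98.

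Of the catalytic subunits, Psmb6 was the only one past the threshold at day 7. It read 10.86, 10.94 and 10.88, against 10.67, 10.74 and 10.58 in untreated thymus. Every day 7 array was higher, by 0.23 ± 0.08 (adjusted p = 0.0368), a call kept in 3 of the 9 fits that each left out 1 array. Psmb5 read 10.21, 10.26 and 10.22 at day 7, above all untreated arrays but short of the threshold (0.16 ± 0.08, adjusted p = 0.133). Psmb7 read 9.37, 9.46 and 9.29 at day 7, which overlapped the untreated arrays (0.11 ± 0.09, adjusted p = 0.331). Among the remaining beta subunits, Psmb3 read 11.49, 11.57 and 11.33 at day 7, against 11.02, 11.17 and 10.36. Untreated replicate 3 was far below the other untreated arrays for this gene, and the difference was 0.61 ± 0.19 (adjusted p = 0.0224). It ranged from 0.37 to 0.77 as single arrays were left out and lost its call without day 7 replicate 1 or replicate 2 (adjusted p = 0.0599 and 0.0717). On the second brightest probe set of Psmb3 the difference was 0.26 and not called (adjusted p = 0.0907). Psmb2 and Psmb4 rose by 0.54 and 0.32 (adjusted p = 0.00163 and 0.0379), kept in 9 and 4 of these 9 fits.

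The regulatory particle had 8 of 20 members higher and 1 lower. Of the ATPases, Psmc1, Psmc2, Psmc3 and Psmc5 rose by 0.37, 0.42, 0.24 and 0.29 (adjusted p = 0.00667, 0.004, 0.0318 and 0.0295), kept in 9, 9, 4 and 5 of the 9 fits that left out 1 array. Psmc4 and Psmc6 overlapped the untreated arrays, with 11.55, 11.82 and 11.77 for Psmc4 and 10.66, 10.81 and 10.79 for Psmc6 at day 7. The other bright probe sets of Psmc6 differed from untreated by 0.66 and 1.06, against 0.05 for the one used. The large base scaffold subunit Psmd1 read 10.68, 10.81 and 10.56 at day 7, against 10.04, 10.17 and 10.21 in untreated thymus. The groups were apart, with a difference of 0.54 ± 0.10 (adjusted p = 0.00175). Psmd4 read 10.10, 10.22 and 9.96 at day 7 and did not pass (0.11 ± 0.10, adjusted p = 0.374).

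In the lid, Psmd7, the partner of Psmd14 in the deubiquitinating dimer, read 7.96, 8.62 and 7.97 at day 7, against 7.16, 7.41 and 7.54 in untreated thymus. Day 7 replicate 2 stood highest, and all 3 were above the untreated arrays, by 0.81 ± 0.19 (adjusted p = 0.00571), or 0.60 to 0.93 as single arrays were left out. The other bright probe set of Psmd7, near log2 5.17 at day 7, differed by -0.08. Its SD was 0.00 at day 7 and 0.07 in untreated thymus, so it was nearly flat and says little about this rise. Psmd11 read 10.71, 10.61 and 10.52 at day 7, against 10.09, 10.01 and 9.96, a difference of 0.59 ± 0.10 (adjusted p = 0.00107). Psmd6 rose by 0.41 (adjusted p = 0.00483), but by only 0.12 on its second brightest probe set (adjusted p = 0.285). Psmd8 read 8.64, 8.86 and 8.56 at day 7, below the untreated 9.0, 9.26 and 9.01, by -0.40 ± 0.13 (adjusted p = 0.0239), and the call was lost without untreated replicate 2 or without day 7 replicate 1 or 3 (adjusted p = 0.0662, 0.0694 and 0.0839). Psmd14 overlapped the untreated arrays, with 10.53, 10.55 and 10.65 at day 7 and a difference of 0.00 ± 0.08 (adjusted p = 0.992).

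**Figure D4:**
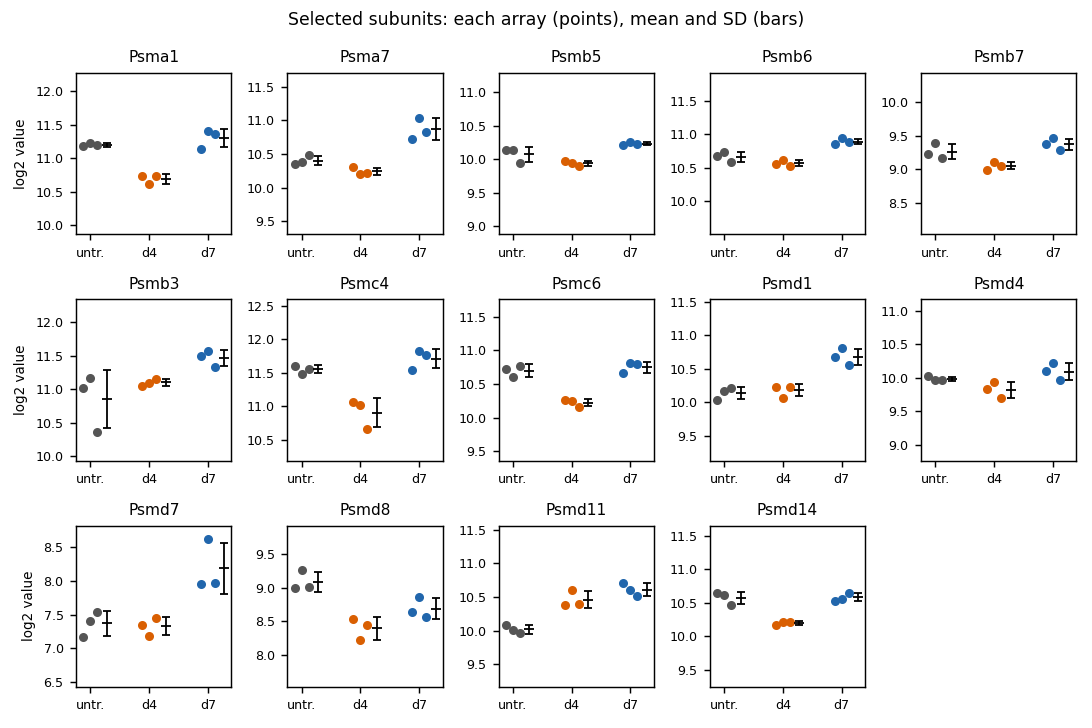
Log2 value of 14 subunits on each array (points) in untreated thymus (untr.), at day 4 (d4) and at day 7 (d7) after irradiation, with the group mean and SD beside the points; all panels span the same number of log2 units. Psmc4, Psmc6, Psma1 and Psmd14 dip at day 4, Psmd1 and Psma7 stand apart at day 7, and Psmb3 has 1 low untreated array at 10.36.

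The third comparison set day 7 against day 4. Most subunits rose, with members in every subcomplex but the assembly chaperones: Psmd7, Psmc4, Psma7 and Psma1 rose most, all 6 ATPases and all 3 catalytic subunits rose, and none fell. The count was 23 of 34 members higher, 67.6% against 27.3% of all genes tested called in either direction (9.78% higher and 17.6% lower). The median difference was 0.33 log2 (quartiles 0.27 and 0.48), beside -0.10 over all genes, and 31 of 34 members had a positive difference. The count was 14 without day 4 replicate 1 or day 7 replicate 2 and between 16 and 24 without any other array. This comparison shares its day 4 and day 7 arrays with the other comparisons, so a member low at day 4 has a larger difference here. The thymocyte and dividing-cell lists were also higher at day 7 than at day 4, with 12 of 13 and 9 of 9 markers past the threshold. So were 7 of 10 endothelial, 4 of 9 cortical epithelial, 2 of 2 erythroid and 1 of 12 general epithelial markers. Lower were 4 of 7 medullary epithelial, 3 of 11 fibroblast and 2 of 12 general epithelial markers. The part of any of these lists in the members' rise was not tested.

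In the core, 11 of 14 tested members rose (78.6%, against 9.78% of all genes). Psma1 stood at 11.13, 11.40 and 11.36 at day 7, against 10.74, 10.61 and 10.74 at day 4, and Psma7 at 10.73, 11.04 and 10.83, against 10.30, 10.20 and 10.21. Neither gene's groups overlapped, with differences of 0.60 ± 0.09 and 0.63 ± 0.10 (adjusted p = 0.00262 and 0.00255). The call for Psma1 was lost with its probe sets averaged or with the second brightest one (adjusted p = 0.0754 and 0.0875). The catalytic subunits moved by similar amounts: Psmb5 by 0.29 ± 0.08, Psmb6 by 0.33 ± 0.08 and Psmb7 by 0.33 ± 0.09 (adjusted p = 0.0331, 0.0179 and 0.0289), each with all day 7 arrays above all day 4 arrays. These 3 calls were close to the threshold: leaving out day 4 replicate 1 or day 7 replicate 2 ended each of them, with adjusted p of 0.0693 and 0.0995 for Psmb5, 0.0559 and 0.0679 for Psmb6, and 0.0921 and 0.102 for Psmb7. They were kept in 3, 6 and 4 of the 9 fits that left out 1 array. Psmb2 and Psmb4 rose by 0.55 and 0.54, whereas Psmb1, Psmb3 and Psma6 did not pass (0.16, 0.37 and 0.23).

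In the regulatory particle, 12 of 20 members rose (60.0%, against 9.78% of all genes). Psmc4 stood at 11.55, 11.82 and 11.77 at day 7, against 11.06, 11.02 and 10.67 at day 4, a difference of 0.80 ± 0.12 (adjusted p = 0.00246), and the 5 other ATPases lay between 0.32 and 0.53; the call for Psmc5 (0.32, adjusted p = 0.0377) was kept in 3 of the 9 fits that left out 1 array. Psmd7 stood at 7.96, 8.62 and 7.97 at day 7, against 7.34, 7.18 and 7.45 at day 4. Its difference was 0.86 ± 0.19 (adjusted p = 0.0108) and ran from 0.64 to 0.97 as single arrays were left out. The other bright probe set of Psmd7 averaged 5.17 with an SD of 0.00 at both times. Flat values of this kind cannot show whether the transcript changed. Psmd1 rose by 0.51, Psmd6 by 0.47, Psmd12 by 0.42, Psmd14 by 0.38 and Psmd2 by 0.30 (adjusted p = 0.00664, 0.00616, 0.0122, 0.0112 and 0.0491), and the call for Psmd2 was kept in 3 of the 9 fits that left out 1 array. Psmd11 differed by 0.16 (adjusted p = 0.262) on its brightest probe set, while its other bright probe sets differed by 0.24, 0.58 and -0.18. The chaperones Psmd5, Psmd9 and Psmd10 differed by -0.08, -0.03 and -0.12, none past the threshold and all of the other sign when arrays were centred on the epithelium list.

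Core and regulatory particle were then set side by side. The core fell in 2 of 14 and the regulatory particle in 6 of 20 members at day 4, with medians of -0.13 and -0.08; at day 7 against untreated the medians were 0.21 and 0.18, and at day 7 against day 4 both were 0.33. The core median minus the regulatory median was thus -0.04, 0.04 and 0.00 in the 3 comparisons. Without the 3 chaperones it was -0.01 at day 4, 0.06 for day 7 against untreated and -0.05 for day 7 against day 4. On single arrays the core mean minus the regulatory mean was 1.57, 1.57 and 1.49 in untreated thymus, 1.50, 1.55 and 1.52 at day 4, and 1.58, 1.54 and 1.59 at day 7. The groups overlapped. Only its change across arrays can be read, since probe sets of different genes have no common scale.

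**Figure D5:**
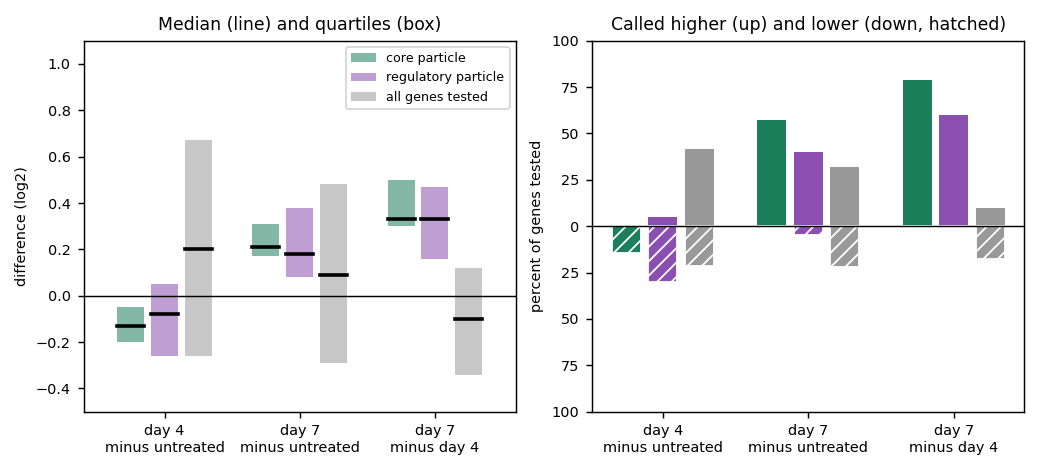
Left, the median (line) and the quartiles (box) of the log2 differences of core subunits, regulatory particle subunits and all genes tested in the 3 comparisons; right, the percent of each set called higher (upward) and lower (downward, hatched) by limma. For day 7 minus day 4 both particles have a median of 0.33, while all genes have -0.10.

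The partners of the constitutive subunits were read from lists of pathway genes, whose counts stand beside 63.2% of all genes tested called at day 4 and 54.1% at day 7 against untreated. Of the 4 inducible and thymic core subunits, 2 rose at day 4, and 3 rose and 1 fell at day 7 against untreated (50.0% and 100% called). Psmb11, the cortical epithelial subunit, read 11.60, 11.71 and 11.68 at day 7, against 10.88, 10.63 and 11.08 in untreated thymus. Psmb10 read 11.31, 11.55 and 11.25 at day 7, against 10.74, 10.71 and 10.64, and Psmb9 read 11.22 on each day 7 array, against 10.55, 10.60 and 10.62. All 3 were apart from the untreated arrays, by 0.80, 0.67 and 0.63 (adjusted p = 6.2e-04, 5.7e-04 and 3.0e-04). Of the 9 cortical epithelial markers, which include Psmb11, 7 rose and none fell at day 7, and the part of this shift was not tested. Psmb8, named after its values were seen, differed by -0.43 (adjusted p = 0.00923), and its second probe set by 0.05.

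Of 4 measured genes for proteasome activators and an inhibitor, 1 fell and 1 rose at each time (50.0% called at both): the 11S activator subunit Psme1 fell by 0.79 at day 4 and by 0.62 at day 7 against untreated (adjusted p = 0.00128 and 0.00592), and the inhibitor Psmf1 rose by 0.51 and 0.32 (adjusted p = 9.6e-04 and 0.0133). Of 5 assembly factors, which help build the core particle, Psmg4 rose by 0.81 and 0.74 (adjusted p = 7.6e-04 and 0.00179), and Psmg2 fell by 0.35 at day 4 (adjusted p = 0.011), 40.0% called at day 4 and 20.0% at day 7. Of 7 other partners of the regulatory particle, 2 fell at day 4: the deubiquitinase Uchl5 read 7.81, 7.87 and 7.82, against 9.01, 8.96 and 8.93 in untreated thymus (-1.13, adjusted p = 8.9e-06), and Zfand5 fell by 0.31 (adjusted p = 0.00659). At day 7 the proteasome adaptor Ecpas rose by 0.53 (adjusted p = 0.00401) and Uchl5 was still lower by 0.52, and 28.6% of this list was called at either time. Of 9 ubiquitin genes and shuttles, 4 fell at day 4, among them the Vcp cofactor Nploc4 by 0.42 and the ubiquitin shuttle Rad23b by 0.34, and Ufd1, the partner of Nploc4, rose by 0.41 at day 7, or 44.4% and 11.1% called. The second probe set of Ufd1 differed by only 0.12 at day 7 against untreated (adjusted p = 0.302). That of Rad23b pointed the other way, with 0.95 at day 4. The second probe sets of Psmg2 at day 4 and Psmf1 at day 7 differed by -0.21 and 0.33, neither called (limma adjusted p = 0.11 and 0.0803). With its probe sets averaged, Zfand5 differed by -0.16 at day 4 (limma adjusted p = 0.0921). Centred on the epithelium list, the calls for Psmg2, Psmf1 and Zfand5 at day 4 and for Psme1 and Uchl5 at day 7 were lost.

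Among 14 regulators of proteasome gene transcription, 4 rose and 5 fell at day 4, and 2 rose and 3 fell at day 7 against untreated, which is 64.3% and 35.7% called, near or below the shares of all genes. Nrf1 read 5.21, 5.35 and 5.23 at day 4 and 5.69, 5.38 and 5.77 at day 7, against 7.78, 6.74 and 7.85 in untreated thymus, with differences of -2.19 and -1.85 (adjusted p = 1.2e-04 and 5.3e-04). On the second brightest probe set of Nrf1 the day 7 difference from untreated was only -0.15 (limma adjusted p = 0.288). Nfyb, a subunit of NF-Y, differed by -1.50 at day 4 and -0.73 at day 7 (adjusted p = 2.3e-05 and 0.00205). The small Maf gene Maff differed by -0.66 at day 4 and 1.33 at day 7 (adjusted p = 0.0448 and 0.00218). At day 4 its arrays overlapped the untreated arrays, and the call was lost with array weights or no filter (limma adjusted p = 0.094 and 0.123). It was also lost in fits that left out 1 array, such as day 4 replicate 1 (limma adjusted p = 0.146). Nfe2l2 and Nfe2l1, named after their values were seen, rose at day 4 by 1.08 and 0.54 (adjusted p = 5.2e-05 and 0.00163). The second probe set of Nfe2l2 differed by -0.49 (adjusted p = 0.147). At day 7 Nfe2l1 differed from day 4 by -0.39 (adjusted p = 0.0227). That call was lost in fits that left out 1 array, such as day 4 replicate 1 (limma adjusted p = 0.0689). Centred on the epithelium list, Nfe2l1 differed by -0.04 at day 7 against day 4 (limma adjusted p = 0.869). Its day 4 rise was then 0.40 and not called (limma adjusted p = 0.0662). Whether any of these factors acted on the subunits was not tested.

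Where a member had several probe sets bright enough to compare, as 16 did, all pointed the same way in 11 at day 4, 11 at day 7 against untreated and 12 at day 7 against day 4. The members with mixed signs were Psmb3, Psmc2, Psmc6, Psmd9 and Psmd11 at day 4, Psma1, Psma3, Psmd7, Psmd9 and Psmd11 at day 7 against untreated, and Psma3, Psmd7, Psmd11 and Psmd13 at day 7 against day 4. The second probe set of Psmd9 averaged 5.31 in untreated thymus but 3.85 at day 4 and 3.77 at day 7. It reached log2 4 through the untreated arrays, so its sign against untreated was largely set by that filter. That of Psmd7 was flat at 5.17 at day 4 and day 7 (SD 0.00).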

How the data were processed

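The deposited values are log2 signals made by the authors with GCRMA, per the submitters' processing notes; the base of the logarithm was read from their range, and no further upstream step is given in the sources used here. Of 45101 probe sets, 34945 carried 1 symbol in the platform annotation and 932 several. Each gene took its brightest probe set over the 9 arrays, and 10937 genes at log2 4 or more on at least 3 arrays entered 1 fit of the 3 groups in limma 3.58.1 (R 4.3.3), with Benjamini-Hochberg adjustment over all of them and a threshold of 0.05. Python 3.11 and matplotlib 3.10.9 drew the figures. The fit was tested on simulated data first. Arrays have no read depth; their number, 3 per group, limits the precision, and folds are on the GCRMA scale, which compresses low signals. 2-sided exact permutation tests were used for the Actb and Gapdh end differences.

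Members and gene lists were chosen with earlier results of these data known. Array values are given for Psmb5, Psmb6, Psmb7, Psmd4, Psmd11 and Psmd14 and, in each comparison, for up to 4 members with the largest rise and up to 4 with the largest fall past the threshold. Of each pathway list up to 3 genes with the largest difference from untreated are named. Alternatives changed the filter, the probe set, the variance prior, array weights, scaling, the replicate block and each array in turn. Protein sequences were not used here.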

Additional observations from a re-analysis of the deposited data

Results flagged for a closer look

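Day 4 and day 7 were each set against the same untreated arrays, and for 23 of the 34 members tested the 2 effects differed past the threshold, which is the day 7 against day 4 test itself. In the alpha ring the differences, day 7 minus day 4 in log2, were 0.60 for Psma1, 0.27 for Psma2, 0.34 for Psma3, 0.33 for Psma4, 0.32 for Psma5 and 0.63 for Psma7. In the beta ring they were 0.55 for Psmb2, 0.54 for Psmb4, 0.29 for Psmb5, 0.33 for Psmb6 and 0.33 for Psmb7. The ATPases gave 0.46 for Psmc1, 0.34 for Psmc2, 0.48 for Psmc3, 0.80 for Psmc4, 0.32 for Psmc5 and 0.53 for Psmc6. The non-ATPase base and lid subunits gave 0.51 for Psmd1, 0.30 for Psmd2, 0.47 for Psmd6, 0.86 for Psmd7, 0.42 for Psmd12 and 0.38 for Psmd14. Of these calls, 14 of 23 held whichever single array was left out.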

How the results depend on the processing

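With single arrays left out, members called ranged from 8 to 9 at day 4 (1 to 2 higher, 7 to 8 lower), from 9 to 16 at day 7 against untreated (8 to 16 higher, 0 to 1 lower) and from 14 to 24 at day 7 against day 4, and 8 of 9, 8 of 17 and 14 of 23 calls held in every such fit. The core median minus the regulatory median ranged from -0.05 to -0.01, from 0.00 to 0.08 and from -0.05 to 0.00. Without the chaperones it was -0.01 at day 4, 0.06 at day 7 against untreated and -0.05 at day 7 against day 4. With probe sets averaged it was 0.05 at day 7 against day 4, and with the second brightest 0.12 at day 7 against untreated. Centring each array on the genes tested gave 19 members called at day 4 (18 lower, 1 higher) and moved the median of all genes by -0.11. It gave 11 higher and 1 lower at day 7 against untreated, and 25 higher at day 7 against day 4. Centring on the epithelium list gave 0 higher and 6 lower, 12 higher and 0 lower, and 27 higher, with all-gene medians moved by -0.14, 0.21 and 0.35; 25.8% of all genes were then higher and 19.5% lower at day 4, 35.3% and 11.2% at day 7 against untreated, and 14.1% and 3.58% at day 7 against day 4. No called member changed direction under these scalings, but members short of the threshold did: Psmb1, Psmc2, Psmd1 and Psmd13 at day 4 under both centrings, Psmd10 at day 4 and Psma6 and Psmd10 at day 7 against untreated under the epithelium centring, and, at day 7 against day 4, Psmd9 under both and Psmd5 and Psmd10 under the epithelium centring. Quantile normalization turned Psmd13 at day 4 and Psmd9 at day 7 against day 4. Members called higher at day 4 numbered 0 with the mean of all probe sets or the second brightest and 2 with array weights; members called lower at day 7 against untreated numbered 0 with no filter, 5 with the mean, 4 with the second brightest and 2 with array weights.

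The replicate block left 8 members called at day 4, 11 at day 7 against untreated (10 higher) and 19 at day 7 against day 4. Same-numbered arrays did not regularly deviate together, with correlations from -0.118 to 0.183, so the numbers do not show a pairing. Of the members' calls, 11 were lost with this block, 8 when centred on the epithelium list, 5 when centred on the genes tested, 5 with quantile normalization, 4 with no filter, 6 with probe sets averaged and 10 with the second brightest one, counting those that turned. In the second-brightest setting a member with 1 probe set kept it, so only the 19 members with several could be read anew. It tested 31 members, and calls of members that dropped out could not count as lost. Psma2, with 1 probe set, was among the lost calls (day 7 against untreated, 0.21, limma adjusted p = 0.0601).

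Called directions of members turned under 2 of these choices: 1 with probe sets averaged and 4 with the second brightest one. The cause was not tested. The values below also include differences of 0.00 and member differences that were not called (Psma1, Psmb3 and Psmd9). The second probe set of Psmd9 averaged below log2 4 at day 4 and day 7, so its sign against untreated was largely set by the filter. That of Psmd7 was flat at day 4 and day 7 (SD 0.00), so it cannot show whether the transcript changed. Rad23b, Psmb8 and Nfe2l2 are not members. With probe sets averaged and with the second brightest one, in that order, the difference was -0.52 and -1.61 for Psma1 and -0.38 and -0.98 for Psma3 (both day 7 against untreated), 0.00 and -0.34 for Psma3 (day 7 against day 4), -0.39 and -1.47 for Psmd9 at day 4 and -0.43 and -1.54 at day 7 against untreated, and 0.05 and 0.95 for Rad23b at day 4 and -0.03 and -0.29 at day 7 against day 4. With the second brightest alone it was -0.31 for Psmb3 and 0.16 for Psmc6 at day 4, -0.08 and 0.00 for Psmd7 (day 7 against untreated and against day 4), 0.05 for Psmb8 and 0.65 for Rad23b at day 7 against untreated, and -0.49 and -0.27 for Nfe2l2 at day 4 and day 7. Psmb8 at day 7 against day 4 was 0.01 when centred on the epithelium list.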
